A study of Mus musculus with 6 samples.

Results

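The genes described here are 10 transcriptional regulators of energy metabolism: the PGC-1 coactivators Ppargc1a and Ppargc1b, the PGC-1 and ERR induced regulator Perm1, the estrogen-related receptors (ERRs) Esrra, Esrrb and Esrrg, the peroxisome proliferator-activated receptors Ppara and Ppard, and the DNA-binding factors Nrf1 and Gabpa. They were looked up by gene name among the 54532 genes of an expression table, and all 10 were found. Their levels were compared between 3 Ctrl hearts and 3 cKO hearts by poly-A RNA sequencing. Ctrl mice were Mrps5 fl/fl, and cKO mice were Mrps5 fl/fl;MCM, in which MCM is an αMHC-driven MerCreMer recombinase that acts in cardiomyocytes once tamoxifen is given. Mrps5 encodes a protein of the mitochondrial ribosome. Mice of both groups received tamoxifen by intraperitoneal injection at 45 mg/kg/day for 5 days from 8 weeks of age, and their hearts were collected 12 weeks later. The study's methods instead describe the sequenced mice by an age that differs from the one these labels add up to. Ctrl mice lacked the transgene, so loss of Mrps5 and presence of the recombinase cannot be told apart.

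PGC-1 proteins do not bind DNA themselves. They are recruited by nuclear receptors such as the ERRs and PPARs and by NRF1 and GABP, and they raise transcription of genes for fatty acid oxidation, the tricarboxylic acid cycle and oxidative phosphorylation. The adult heart, which burns mainly fatty acids, is one of the tissues in which this network is most active.

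Promoter stretches of 5 of these genes are printed because each holds a motif that was searched for. The first 4 belong to genes that fell in cKO, and Esrra did not pass the test. Ppard, which rose, and Gabpa, which fell, also hold a motif, but within annotated exon, and are not printed. The sequences are from RefSeq (GRCm38.p6), are written 5′ to 3′ on the strand of the gene and stop before the RefSeq start site. That site is at 156215927 for Perm1 and 85735776 for Ppara, both inside the gene span of the expression table, and at 6921808 for Esrra, a few bases inside it. Capitals mark the motif, on either strand: the ERR core site AAGGTCA in Perm1, the cAMP response core site TGACG in Ppargc1a and Esrrb, and the NRF1 core GCATGCGC in Ppara and Esrra, in Ppara as overlapping copies in both orientations.
Perm1, chr4:156215677-156215897, plus strand: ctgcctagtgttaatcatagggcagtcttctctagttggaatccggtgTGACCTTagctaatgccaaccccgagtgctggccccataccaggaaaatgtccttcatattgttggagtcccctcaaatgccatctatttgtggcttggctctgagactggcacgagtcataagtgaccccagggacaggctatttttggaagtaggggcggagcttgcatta
Ppargc1a, chr5:51567726-51567975, minus strand: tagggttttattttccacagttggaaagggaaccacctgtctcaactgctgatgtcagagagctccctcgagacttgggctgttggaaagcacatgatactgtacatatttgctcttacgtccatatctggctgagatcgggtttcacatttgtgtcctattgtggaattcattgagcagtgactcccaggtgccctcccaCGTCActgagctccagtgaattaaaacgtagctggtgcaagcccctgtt
Esrrb, chr12:86360867-86361116, plus strand: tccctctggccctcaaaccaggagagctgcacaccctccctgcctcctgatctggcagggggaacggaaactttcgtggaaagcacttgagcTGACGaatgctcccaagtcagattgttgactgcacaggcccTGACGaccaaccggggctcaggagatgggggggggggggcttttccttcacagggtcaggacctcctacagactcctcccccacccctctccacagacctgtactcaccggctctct
Ppara, chr15:85735684-85735775, plus strand: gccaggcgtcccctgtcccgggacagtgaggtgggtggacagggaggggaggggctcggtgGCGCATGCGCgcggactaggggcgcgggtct
Esrra, chr19:6921809-6922058, minus strand: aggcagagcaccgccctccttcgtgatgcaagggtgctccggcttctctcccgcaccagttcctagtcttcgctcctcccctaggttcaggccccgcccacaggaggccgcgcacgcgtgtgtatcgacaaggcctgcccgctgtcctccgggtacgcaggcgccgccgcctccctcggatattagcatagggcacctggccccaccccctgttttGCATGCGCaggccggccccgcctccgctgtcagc

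Windows from 250 bases before to 50 bases after a start site were found for 9 of the 10 genes, 14 windows in all. AAGGTCA, searched on both strands, was in 1 of the 9 genes (Perm1) and in 5.38% of all 27025 genes with a window. GCATGCGC was in 2 of 9, against 3.05% of all genes. TGACG, a short and common motif, was in 4 of 9 (Ppargc1a, Esrrb and Ppara, which fell, and Ppard, which rose), against 23.1%. The GABPA-bound ETS core CCGGAAG was in 1 of 9 (Gabpa) against 9.93%, and neither the longer ERR element TNAAGGTCA (1.43% of all genes), which contains the core site, nor the E-box CACGTG (8.09%) was found in these windows. Such matches describe the letters and say nothing of binding.

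The 6 libraries held between 15989322 and 24875499 reads, worked back from the expression values, and a regulator had between 164 and 10685 reads in a heart. Levels are given as FPKM, which is per kilobase of gene. Set side by side between genes, they also depend on the gene length and the read counting used. The order of different genes, and ratios between them, are therefore approximate. Mrps5 was 5.20, 6.45 and 6.33 FPKM in Ctrl and 1.12, 1.23 and 1.31 FPKM in cKO, so the libraries followed their labels. Replicate 2 of cKO stood apart in that its Y-linked genes were at 0 and Xist was at 10.7 FPKM, against 0.127 FPKM or less in the other 5 hearts. This is the pattern of a female heart, whereas the study reports male mice only and the labels give no sex. Of 10 cardiomyocyte markers 6 fell and the other 4 did not pass, their summed level being 17166 to 21771 FPKM in Ctrl and 10514, 17814 and 12818 FPKM in cKO replicates 1, 2 and 3. Of 8 fibroblast markers 3 rose (Col1a1, Col3a1 and Postn) and 1 fell (Dcn, the most abundant), and their sum was 162 to 189 FPKM in Ctrl and 163 to 195 in cKO. Of 6 endothelial markers 3 fell (sum 125 to 143 FPKM in Ctrl and 82.8 to 101 in cKO), of 5 smooth muscle and pericyte markers tested 2 fell and 1 rose (167 to 184 and 104 to 133), and of 6 macrophage markers 1 fell (192 to 255 and 136 to 204). The 6 atrial markers, summing to 37.7 to 1066 FPKM in Ctrl and 118 to 789 in cKO, and the 4 adipocyte markers tested, with a list sum of 4.77 to 24.3 and 2.26 to 16.1, did not pass (adjusted p of 0.410 or more). Lymphocyte markers were near 0 in all hearts (at most 2.36 FPKM), with Ms4a1 at 0. In whole tissue, fewer cells of a type and less RNA per cell cannot be told apart, and the part of cell composition in the results below was not tested.

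Perm1, a striated muscle protein that is induced by PGC-1 and ERR and acts on metabolic genes in turn, showed the largest change of the 10. It lies on chromosome 4 (GRCm38, 156215868 to 156221307, plus strand, 4 exons). Its level was 98.8, 112 and 113 FPKM in Ctrl and 40.2, 68.2 and 53.3 FPKM in cKO. Every cKO heart lay below every Ctrl heart, and the cKO mean of 53.9 ± 14.0 FPKM (SD, n = 3) was 49.9% of the Ctrl mean of 108 ± 8.06 FPKM. The log2 fold change was -1.02 (SE 0.182, 95% interval -1.45 to -0.59, adjusted p = 0.00695). All fold changes here are cKO minus Ctrl on log2(FPKM + 1), from limma fitted over 12944 genes with Benjamini-Hochberg adjustment over all of them. Without cKO replicate 2 the change was -1.20. The order of the cKO hearts, replicate 1 lowest and replicate 2 highest, was also that of the summed cardiomyocyte markers. The Ctrl hearts did not share an order: replicate 3 was highest for Perm1 and lowest for the summed markers.

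Ppargc1a encodes PGC-1α, the inducible coactivator of mitochondrial biogenesis (chromosome 5, 51454250 to 51567726, minus strand). It was at 17.0, 22.6 and 20.9 FPKM in Ctrl and 10.4, 13.7 and 13.6 FPKM in cKO. The groups did not overlap, and the level in cKO was 62.2% of that in Ctrl (log2 fold change -0.64, SE 0.141, adjusted p = 0.0143). This call was lost without Ctrl replicate 2 (-0.56, adjusted p = 0.0503) and without Ctrl replicate 3 (-0.62, adjusted p = 0.0512). Ppargc1b, which encodes the related PGC-1β (chromosome 18, 61298136 to 61400431, minus strand), was at 4.88, 5.23 and 2.87 FPKM in Ctrl and 4.65, 6.90 and 4.54 FPKM in cKO. These values overlapped, with a log2 fold change of 0.27 whose interval ran from -0.24 to 0.78 (adjusted p = 0.376). It was 0.05 without Ctrl replicate 3 and 0.10 without cKO replicate 2.

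**Figure D1:**
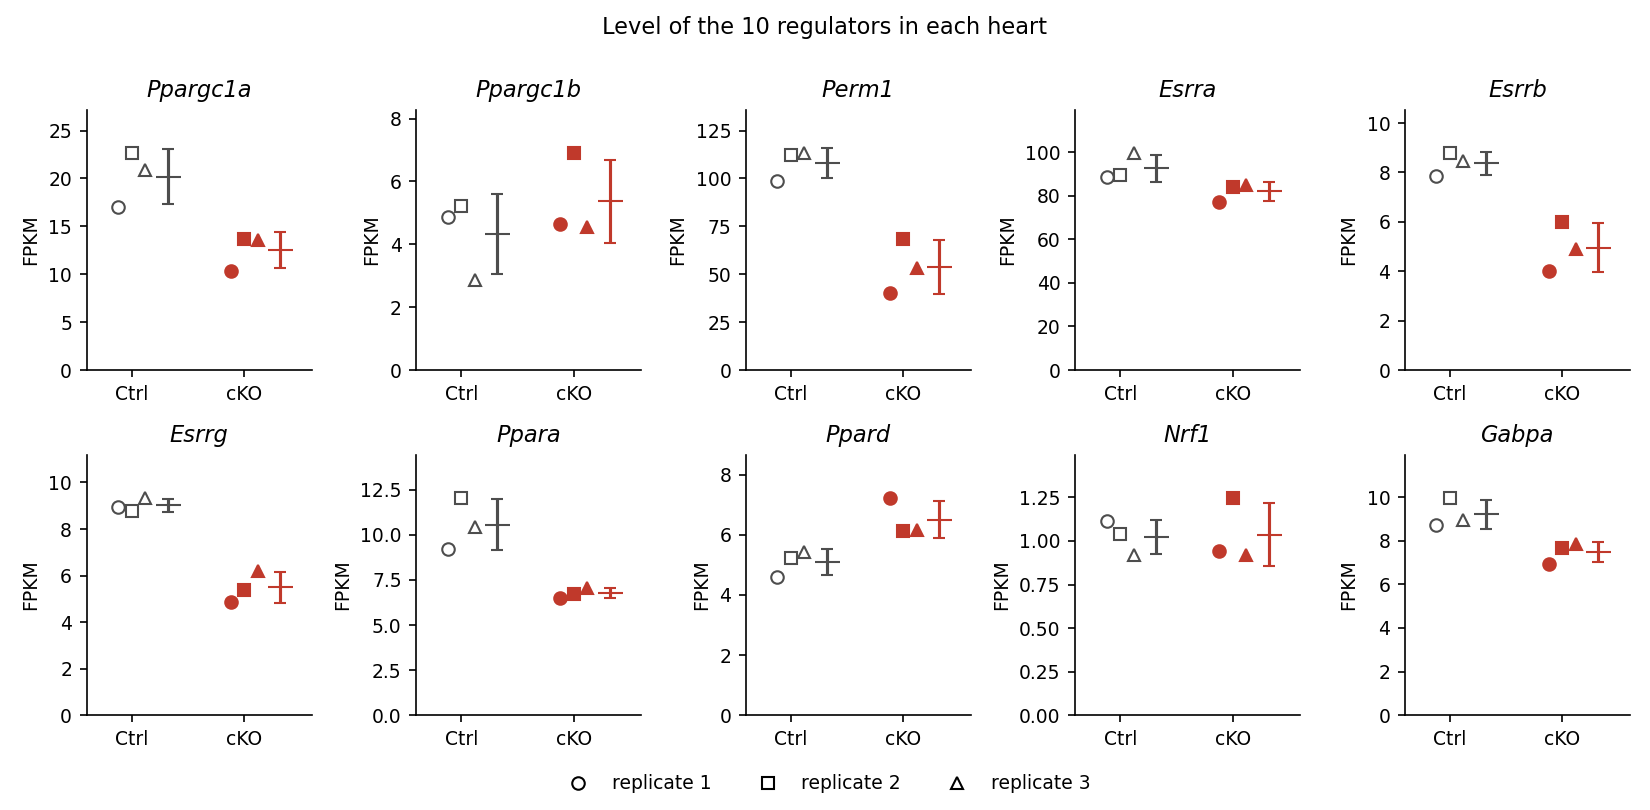
Level of each of the 10 regulators (FPKM, linear axes from 0) in 3 Ctrl hearts (open grey) and 3 cKO hearts (filled red), the marker shape giving the replicate number, with the mean and SD beside them. In cKO, 7 genes lay wholly below Ctrl, Ppard lay wholly above, and Ppargc1b and Nrf1 overlapped.

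The ERRs are orphan nuclear receptors that bind the core site named above and depend on PGC-1 for activity. Esrra was by far the most abundant of them, at 88.5, 89.6 and 99.6 FPKM in Ctrl and 77.1, 84.1 and 85.1 FPKM in cKO (chromosome 19, 6910977 to 6921813, minus strand). Its highest cKO heart lay just under its lowest Ctrl heart, yet the change of -0.17 (SE 0.0816, 95% interval -0.36 to 0.02) did not pass (adjusted p = 0.150), and was -0.0831 when libraries were scaled without mtDNA-encoded genes. The separation depends on how libraries are scaled. In reads, Ctrl replicate 2 held 4731 of 22772851 for Esrra, and cKO replicate 2 held 4986 of 21982256. Esrra shares 73 exonic bases with Trmt112 on the other strand (11.2 to 12.9 FPKM in Ctrl, 12.6 to 17.0 in cKO), and the use of strand in counting was not stated, so its value is uncertain to that extent.

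The less abundant ERRs both fell. Esrrb, known best from early development and also expressed in heart (chromosome 12, 86361117 to 86521628, plus strand), was at 7.84, 8.79 and 8.48 FPKM in Ctrl and 4.01, 5.99 and 4.88 FPKM in cKO. All cKO hearts were below all Ctrl hearts, with a mean 59.3% of theirs (log2 fold change -0.66 with SE 0.127, adjusted p = 0.00886). Esrrg, which drives the perinatal switch of the heart to oxidative metabolism (chromosome 1, 187608791 to 188214885, plus strand), was at 8.96, 8.77 and 9.32 FPKM in Ctrl and 4.85, 5.39 and 6.21 FPKM in cKO. Its Ctrl hearts were tightly grouped (9.02 ± 0.282 FPKM), the cKO mean was 60.9% of theirs, and its adjusted p of 0.00358 was the lowest among the 10 (log2 fold change -0.63, SE 0.0919).

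Of the PPARs, the fatty acid receptors that pair with RXR on DNA, Ppara and Ppard went in opposite directions. Ppara, the main activator of fatty acid oxidation genes in liver and heart (chromosome 15, 85734983 to 85802819, plus strand), was at 9.20, 12.0 and 10.4 FPKM in Ctrl and 6.51, 6.74 and 7.08 FPKM in cKO. The groups did not overlap, and the log2 fold change was -0.56 (SE 0.101, adjusted p = 0.00713), a cKO level of 64.2% of Ctrl. Ppard, the more widely expressed receptor (chromosome 17, 28232700 to 28301474, plus strand), was at 4.61, 5.22 and 5.43 FPKM in Ctrl and 7.22, 6.14 and 6.15 FPKM in cKO. It was the only regulator of the 10 that rose (log2 fold change 0.30, SE 0.0918, adjusted p = 0.0435, 128% of Ctrl). This call was lost whichever 1 heart was left out (change 0.23 to 0.34), and with no filter on low values.

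Nrf1 and Gabpa encode DNA-binding factors for genes of the respiratory chain and of mitochondrial DNA maintenance. Nrf1 had the lowest level of the 10 (chromosome 6, 30047988 to 30153458, plus strand), with 1.11, 1.04 and 0.921 FPKM in Ctrl and 0.942, 1.25 and 0.920 FPKM in cKO. The groups overlapped fully and the log2 fold change was 0.01 (95% interval -0.22 to 0.23, adjusted p = 0.970), or -0.0663 without cKO replicate 2. Gabpa, the DNA-binding subunit of GABP (chromosome 16, 84834925 to 84863779, plus strand), was at 8.72, 9.95 and 8.96 FPKM in Ctrl and 6.95, 7.65 and 7.84 FPKM in cKO. It fell slightly without overlap (log2 fold change -0.27, SE 0.0809, adjusted p = 0.0422, 81.2% of Ctrl). The call was lost whichever 1 heart was left out (change -0.30 to -0.22) and under both other scalings. Gabpa also shares 397 exonic bases with the antisense ATP synthase gene Atp5j, which fell from 223, 267 and 237 FPKM to 153, 159 and 174 FPKM, and reads of the pair cannot be told apart without strand.

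In all, 6 of the 10 regulators fell, 1 rose and 3 did not pass. Over the 12944 genes tested, 33.3% passed, 17% with a fall and 16.3% with a rise, so the share of regulators that fell (60%) was above the background. The set was proposed with results of these data known, so this is a description. The mtDNA-encoded genes held 39.6% to 42.1% of summed FPKM in Ctrl and 33.3% to 38.0% in cKO, and with scaling to the total without them 2649 genes rose and 1621 fell, in place of 2110 and 2205, and 5 regulators fell and 1 rose. By range of the deposited FPKM alone, 7 regulators lay lower in cKO without overlap and 1 higher, where 51.2% of all genes did not overlap, 26.4% lower and 24.8% higher. The median log2 fold change of the 10 was -0.42, against -0.02 over all genes tested. Without cKO replicate 2, 5 fell and the other 5 did not pass, and over the 14 alternative settings between 4 and 6 fell.

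**Figure D2:**
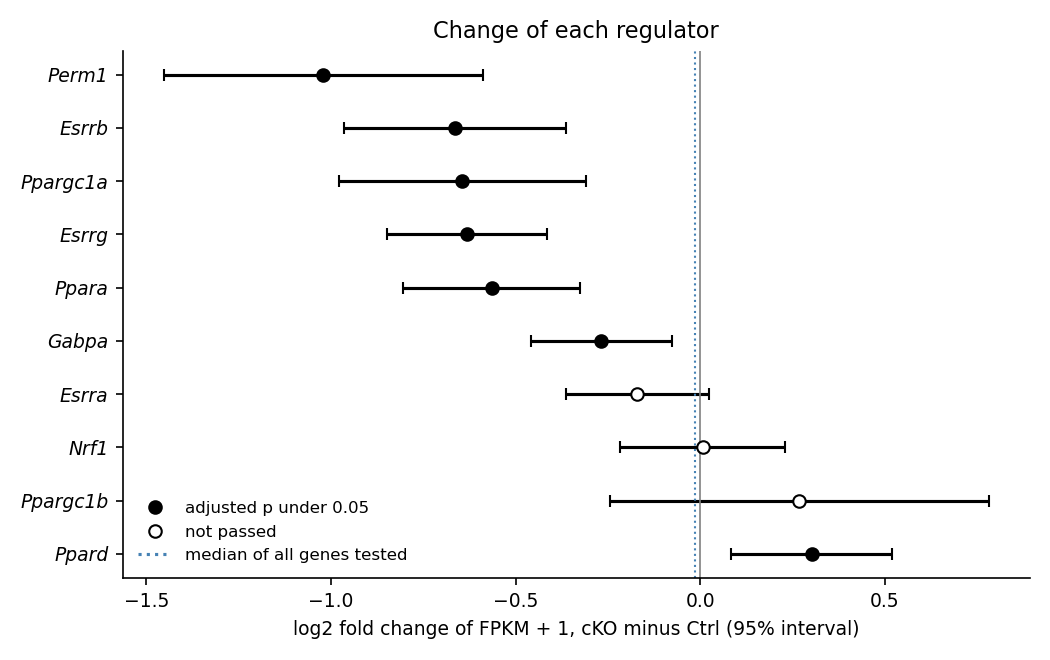
Log2 fold change of FPKM + 1 (cKO minus Ctrl) of each regulator with its 95% interval from limma, 3 hearts a group, filled where the adjusted p was under 0.05; the dotted line is the median of all genes tested. Perm1 lay lowest at -1.02, 4 genes lay between -0.66 and -0.56, and Ppard at 0.30 was the only filled point above 0.

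The balance within each family is given here as values per heart, with no test. Ppargc1a made up 77.7%, 81.2% and 87.9% of the summed PGC-1 coactivator FPKM in Ctrl and 69.1%, 66.5% and 75.0% in cKO. The ratio of Ppargc1a to Ppargc1b was accordingly 3.49, 4.33 and 7.27 in Ctrl and 2.23, 1.98 and 3.00 in cKO, with the widest spread in Ctrl. Perm1 was at a higher level than Esrra in every Ctrl heart (ratio 1.12, 1.25 and 1.14) and at a lower level in every cKO heart (0.521, 0.810 and 0.627). Perm1 relative to Ppargc1a overlapped between the groups (4.95 to 5.80 in Ctrl, 3.87 to 4.98 in cKO).

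Among the ERRs, Esrra was 84.1%, 83.6% and 84.8% of the summed FPKM in Ctrl and 89.7%, 88.1% and 88.5% in cKO. The summed ERR level was 110 ± 6.51 FPKM in Ctrl and 92.5 ± 5.72 FPKM in cKO, again without overlap. Ppara was above Ppard in every Ctrl heart (ratio 2.00, 2.30 and 1.92), while the ratio in cKO lay on both sides of 1 (0.903, 1.10 and 1.15). The ratio of Gabpa to Nrf1 overlapped (9.06 ± 1.05 in Ctrl, 7.34 ± 1.19 in cKO).

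**Figure D3:**
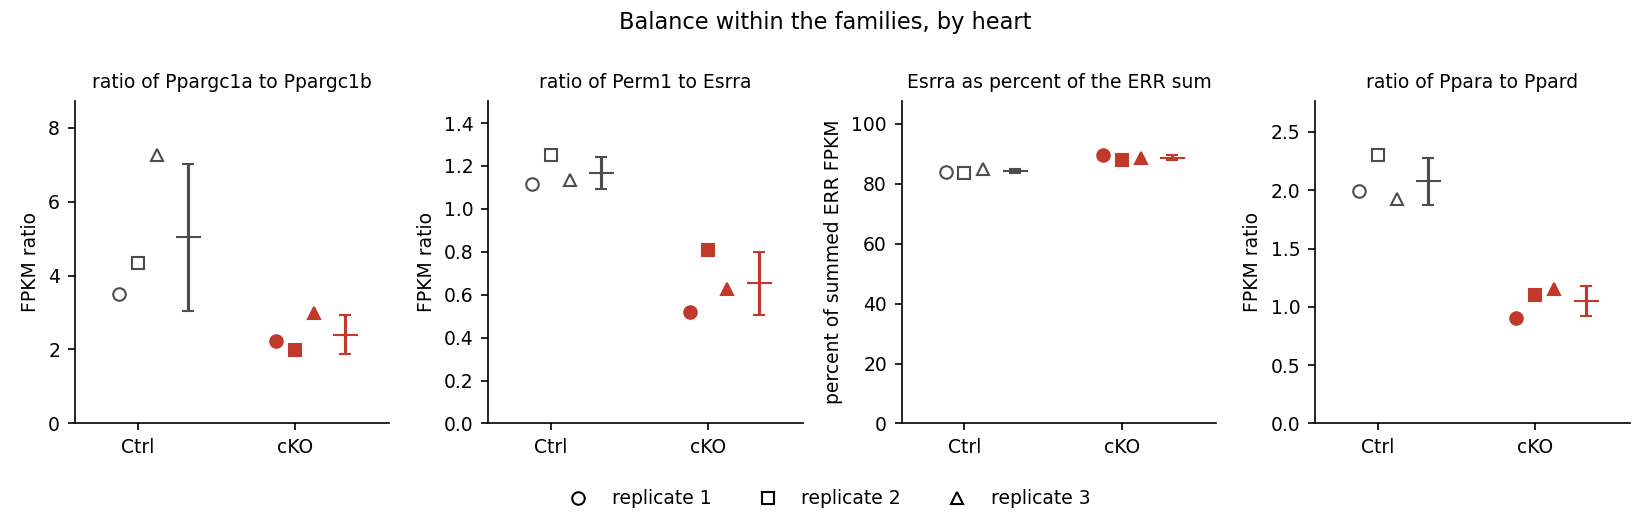
Ratios of FPKM, and Esrra as a percentage of summed ERR FPKM, in 3 Ctrl hearts (open grey) and 3 cKO hearts (filled red), with mean and SD; all axes start at 0. In each of the 4 measures the groups did not overlap, and Ppara to Ppard ran from 1.92 to 2.30 in Ctrl and from 0.903 to 1.15 in cKO.

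The other genes of the network were counted from lists of partners, upstream activators and target genes. Of 25 receptor partners and coregulators 8 fell (32%), 3 rose and 14 did not pass, with a median of -0.20. Rxra, an obligate partner of the PPARs, was at 15.3, 15.3 and 17.7 FPKM in Ctrl and 8.53, 7.75 and 9.92 FPKM in cKO (log2 fold change -0.82, adjusted p = 0.00262). Rxrg also fell, from a mean of 24.5 to 16.9 FPKM (-0.52, adjusted p = 0.00950), whereas Rxrb was at 17.0 and 16.1 FPKM (adjusted p = 0.513). Lpin1, a phosphatidate phosphatase that also coactivates PGC-1α and PPARα, showed the largest fall of the list, from 26.2 to 11.7 FPKM (-1.08, adjusted p = 0.00801). The genes that rose were Mybbp1a, a nucleolar protein that binds and represses PGC-1α (13.1 to 21.5 FPKM, 0.68, adjusted p = 0.00195), the acetyltransferase Kat2a, which also represses PGC-1α (5.59 to 8.34 FPKM, 0.50, adjusted p = 0.00342), and the PGC-1-related coactivator Pprc1 (2.01 to 3.31 FPKM, 0.50, adjusted p = 0.0451). The Pprc1 call was lost when any 1 heart other than cKO replicate 1 was left out (adjusted p between 0.0635 and 0.130). The thyroid hormone receptor Thra was at 14.8 and 15.2 FPKM (adjusted p = 0.806).

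Of the 20 upstream activators of PGC-1 that were tested, 5 fell (25%), 1 rose and 14 did not pass, with a median of -0.15 (Camk4 was below the filter on low values). Klf15, a Krüppel-like factor, fell from 33.3 to 15.9 FPKM (-0.999, adjusted p = 0.0137). The study itself picked Klf15 by a screen that started from genes lower in cKO hearts and added further experiments and patient hearts. Mapk14, the p38α kinase that phosphorylates PGC-1α, was at 17.8, 17.2 and 16.5 FPKM in Ctrl and 11.5, 11.5 and 12.0 FPKM in cKO (-0.52, adjusted p = 0.00249). The CREB coactivator Crtc2 fell from 4.81 to 3.59 FPKM (-0.33, adjusted p = 0.0379), and the calcium-dependent kinase Camk2d rose from 5.33 to 7.27 FPKM (0.38, adjusted p = 0.0176). The Crtc2 call was lost when any 1 heart other than Ctrl replicate 2 was left out (adjusted p between 0.0708 and 0.0982), and that of Camk2d without Ctrl replicate 1 (0.0599) or 3 (0.0615). Mef2d (31.6 and 31.0 FPKM, adjusted p = 0.810) and the AMPK catalytic subunit Prkaa2 (20.1 and 22.0 FPKM, adjusted p = 0.197) did not pass.

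Of 32 target genes of the ERRs, 18 fell (56.25%) and the other 14 did not pass, with a median of -0.33 and 30 of 32 changes below 0. Over all genes tested, 6717 of 12944 changes were below 0. The 10 cardiomyocyte markers were all below 0 as well, with a median of -0.60. Myoglobin (Mb), the oxygen store of muscle, was at 5448, 6640 and 5866 FPKM in Ctrl and 2751, 2990 and 3360 FPKM in cKO (-0.98, adjusted p = 0.00235). Cox8b, a muscle subunit of cytochrome oxidase, fell from 1818 to 873 FPKM (-1.06, adjusted p = 0.00166). Pln, which encodes the calcium pump inhibitor phospholamban and is also on the list of cardiomyocyte markers, fell from 465 to 173 FPKM (-1.43, adjusted p = 0.00148). The fatty acid carrier Fabp3, also on the list of PPAR target genes, was at 4950 and 5105 FPKM (adjusted p = 0.742), and Cox6a2 was at 1986 and 1850 FPKM (adjusted p = 0.409).

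Among PPAR target genes the share that fell was the highest of the lists, 22 of 35 (62.9%), with 2 that rose, 11 that did not pass and a median of -0.48. Lipoprotein lipase (Lpl), which releases fatty acids from circulating fat, was at 595, 639 and 651 FPKM in Ctrl and 243, 238 and 313 FPKM in cKO (-1.25, adjusted p = 0.00121). The peroxisomal oxidation enzyme Ehhadh fell from 6.80 to 2.36 FPKM (-1.24, adjusted p = 0.00335). In contrast, Angptl4, a secreted inhibitor of lipoprotein lipase, was at 4.34, 1.81 and 3.41 FPKM in Ctrl and 16.8, 6.07 and 9.88 FPKM in cKO (1.46, adjusted p = 0.0224), a call lost without Ctrl replicate 2 (adjusted p = 0.0683), Ctrl replicate 3 (0.0572) or cKO replicate 3 (0.0552). The acyl-CoA thioesterase Acot2 rose from 37.7 to 92.3 FPKM (1.29, adjusted p = 0.00503) while its near-identical neighbour Acot1 fell from 5.06 to 2.12 FPKM (-0.92, adjusted p = 0.0247), and reads may have been split between them. The Acot1 call was lost without cKO replicate 1 (adjusted p = 0.0744) or 2 (0.0529). Fabp3 and the dehydrogenase Acadl (586 and 507 FPKM, adjusted p = 0.0800) did not pass. The pathway lists share 6 genes (Acadm, Acsl1, Cpt1b, Cycs, Fabp3 and Pdk4), so their counts are not independent.

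Of 24 target genes of NRF1 and GABP that were tested, 4 fell (16.7%), 2 rose and 18 did not pass, a share of falls near the 17% of all genes, with a median of -0.13 (Cox17 was below the filter), or -0.0480 with scaling without mtDNA-encoded genes. The 3 largest falls were the cytochrome oxidase subunits Cox6c (240 to 156 FPKM, -0.62, adjusted p = 0.00586) and Cox7c (712 to 511 FPKM, -0.47, adjusted p = 0.0101) and the succinate dehydrogenase subunit Sdhd (317 to 237 FPKM, -0.41, adjusted p = 0.0246). Tomm70a, a receptor of the mitochondrial import machinery, rose from 9.76 to 12.7 FPKM (0.34, adjusted p = 0.00960), as did Fmr1 from 1.56 to 2.00 FPKM (0.23, adjusted p = 0.0461). The Fmr1 call was lost whichever 1 heart was left out (adjusted p between 0.0601 and 0.125), and that of Sdhd without Ctrl replicate 2 or 3 or cKO replicate 1 or 3 (between 0.0535 and 0.0687). Cox4i1 (1289 and 1076 FPKM, adjusted p = 0.110) and Atp5c1 (586 and 492 FPKM, adjusted p = 0.0909) did not pass. In their promoter windows the ETS core CCGGAAG was present in 13 of 22 genes (59.1%), against 9.93% of all genes, and GCATGCGC in 5 of 22 (22.7%), against 3.05%. The ERR core site was in 4 of 26 ERR target genes (15.4%) against 5.38%. It was also in 3 of 22 NRF1 and GABP target genes (13.6%) and in 1 of 28 PPAR target genes (3.57%). GCATGCGC was likewise in 4 of 26 ERR target genes (15.4%), so the ERR core site and GCATGCGC were not particular to their own list. The ETS core was in 5 of 26 ERR target genes (19.2%) and 3 of 28 PPAR target genes (10.7%), lower shares than in its own list.

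**Figure D4:**
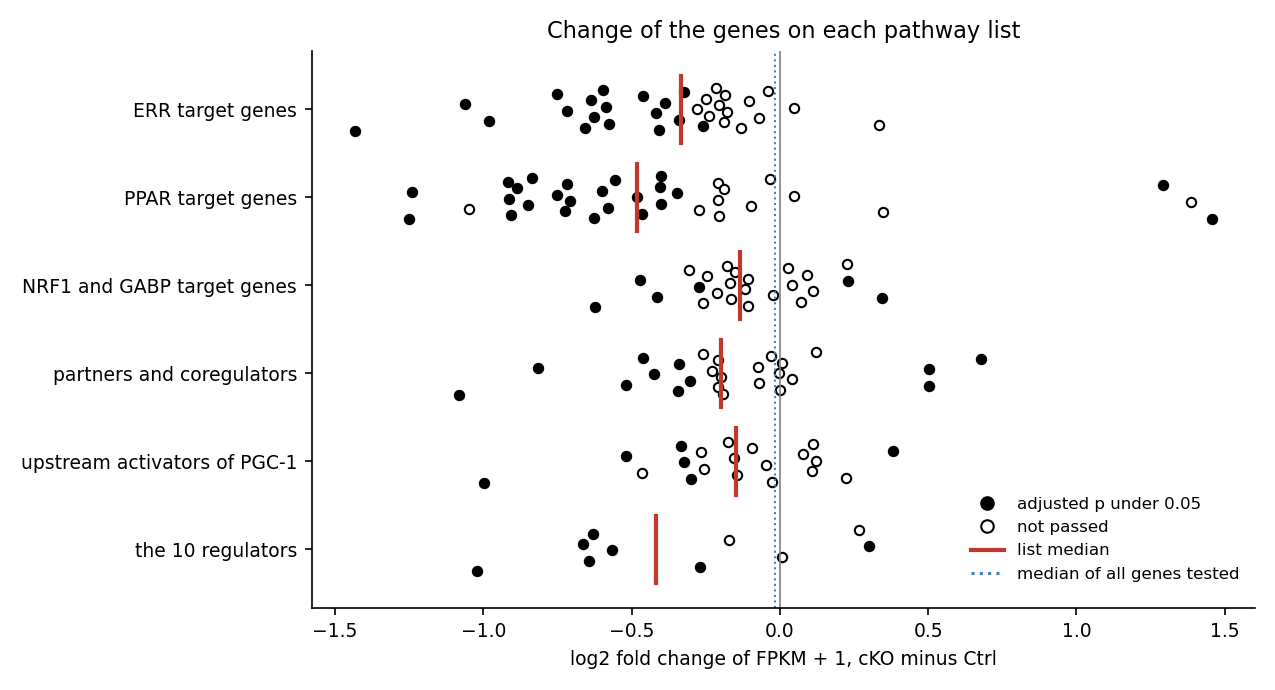
Log2 fold change of FPKM + 1 (cKO minus Ctrl) of each tested gene on the pathway lists, 1 point a gene, filled where the adjusted p was under 0.05, with the median of each list (red bar) and of all genes tested (dotted line). ERR and PPAR target genes lay mostly left of 0 with medians of -0.33 and -0.48, while NRF1 and GABP target genes lay around -0.13.

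The genes whose level followed Perm1 most closely over the 6 hearts, among 10165 protein-coding genes, were Esrrb (Pearson's r = 0.999, Spearman's rho = 0.943), the cardiac L-type calcium channel subunit Cacna1c (r = 0.999, rho = 1) and Fam210a (r = 0.996, rho = 1). Those most like Ppargc1a were Apip, Kyat3 and Ndufa8 (r = 0.997, 0.997 and 0.996). Perm1 and Ppargc1a themselves were related with r = 0.961. The 6 hearts fall into 2 groups whose means differed for each of these genes. Apip (log2 fold change -0.21, adjusted p = 0.0591) and Ndufa8 (-0.22, adjusted p = 0.0892) nevertheless did not pass the test between groups. The coefficients rest mainly on the difference between groups and are given as a description. Esrrb and Perm1 also kept the same order within cKO (replicates 1, 3, 2) but not within Ctrl.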

How the data were processed

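RNA-seq of 6 mouse hearts was analysed. The authors prepared poly-A libraries and, per the labels and methods, aligned reads with HISAT2 2.0.5 and counted them with featureCounts 1.5.0-p3; strand and multi-mapping settings were not stated. Values are FPKM computed and deposited by the authors, beside an other, gene-level value, the gene length. FPKM times length gave whole reads for 100% of values (largest deviation 0.00015 read), hence depth. The library size implied by the FPKM was 0.913 to 0.980 of the recovered reads in Ctrl and 1.06 in cKO. The FPKM thus carry a scaling that differs by group and gives lower cKO values than recovered reads would. The voom alternative kept these implied sizes, and scaling to recovered reads was not tested. The labels name mm9, but gene positions matched GRCm38 (53499 of 54409 shared identifiers identical).

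The 12944 genes averaging 0.5 FPKM or more were tested as log2(FPKM + 1), which understates changes of low genes, with limma 3.58.1 in R 4.3.3 (eBayes with trend, two-sided, threshold 0.05), in place of the authors' DESeq2 on counts. Group and replicate came from the titles. Replicate hearts differed by more than counting noise, so none was a duplicate. Lists and members were chosen with earlier results of these data known. All regulators were named, and of each list up to 3 largest increases and decreases that passed and 2 most abundant that did not. Likeness used genes of at least 1 FPKM. A ± gives the SD of 3 hearts. The fit was tested on simulated data. Alternatives were other pseudocounts, filters, scalings, voom on recovered reads, eBayes without trend, a replicate block and leaving out each heart. The authors' own fold changes and p-values were not used.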

Additional observations from a re-analysis of the deposited data

How the results depend on the processing

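Perm1, Esrrb, Esrrg and Ppara kept their direction and call under all 14 alternatives (Perm1 between -1.20 and -0.83), Ppargc1a under 12, and Esrra and Ppargc1b passed under none. With no filter on low values, Ppard (0.30, adjusted p = 0.0883) and Gabpa (-0.27, adjusted p = 0.0729) lost their call, 5 partners fell, 1 PPAR target and 1 NRF1 or GABP target rose and 2 of the latter fell. Gabpa also lost it under median-of-ratios scaling (-0.24, adjusted p = 0.0560) and scaling without mtDNA-encoded genes (-0.19, adjusted p = 0.0913), which moved the median of all genes from -0.02 to 0.05, gave 5 partners and 3 upstream activators lower and medians of -0.14 and -0.0824, and turned Rxrb to 0.0102 and Mef2d to 0.0589. Medians were -0.26 (partners, voom) and -0.56 (PPAR targets, voom and a pseudocount of 0.1).

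Deviations of same-numbered hearts had r = -0.06, 0.17 and -0.01 for replicates 1, 2 and 3. Whether the numbers pair the hearts was not tested. With a replicate block Ppard (0.30, adjusted p = 0.0908) and Gabpa (-0.27, adjusted p = 0.0569) lost their call and 1 NRF1 or GABP target rose. The SE fell most for Ppargc1a (0.141 to 0.0750), Ppargc1b (0.216 to 0.129) and Perm1 (0.182 to 0.128). It rose for Ppard (0.0918 to 0.107) and Nrf1 (0.0942 to 0.0946).

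With 1 heart left out, 1396 to 1977 genes rose and 1423 to 2011 fell (1396 higher without Ctrl replicate 3, 1423 and 1432 lower without Ctrl replicates 2 and 3). Changes ranged from -0.76 to -0.52 (Ppargc1a), 0.0532 to 0.397 (Ppargc1b), 0.23 to 0.34 (Ppard), -0.30 to -0.22 (Gabpa) and -0.0663 to 0.0465 (Nrf1, -0.0309 without Ctrl replicate 3 and -0.0663 without cKO replicate 2). Counts ranged from 5 to 7 (partners lower), 0 to 1 (upstream higher), 2 to 5 (upstream lower), 1 to 3 (PPAR targets higher), 1 in each case (NRF1 and GABP targets higher) and 2 to 4 (these lower), and the partners' median from -0.23 to -0.14. ERR targets that fell numbered 13 to 17, in place of 18, and 13 with no filter on low values. PPAR targets that fell numbered 20 to 22. Thra ranged from -0.0564 (without cKO replicate 2) to 0.119 and was -0.0216 without Ctrl replicate 3, Mef2d from -0.0761 to 0.0262 (without cKO replicate 2) and Fabp3 from -0.0191 (without Ctrl replicate 3) to 0.104. Of 448 comparisons of the 32 named list genes, 405 kept direction and call and 37 lost the call. With 3 hearts a group and 164 to 299 reads, changes of Nrf1 within its interval were not detectable. That interval is on log2(FPKM + 1), which understates changes at so low a level. The SE of Nrf1 was 0.0942 there, 0.155 with voom and 0.170 with a pseudocount of 0.1, so larger changes could also have been missed. The causes were not tested.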

Other observations

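Among the transcription factors that the table assigns to nuclear receptor families, 42 besides the members were listed and 26 tested. Of these 6 fell and 1 rose, where 17% of all genes tested fell and 16.3% rose. These genes were looked at after the values were seen, so the count is a description. Nr1d2, the clock repressor REV-ERBβ, was at 23.8, 19.9 and 28.2 FPKM in Ctrl and 11.6, 5.51 and 12.8 FPKM in cKO (log2 fold change -1.24, adjusted p = 0.0171). The mineralocorticoid receptor Nr3c2 fell from 2.97 to 1.43 FPKM (-0.70, adjusted p = 0.00281), the retinoid-related orphan receptor Rora from 2.63 to 1.69 FPKM (-0.44, adjusted p = 0.0162) and the thyroid hormone receptor Thrb from 3.53 to 2.41 FPKM (-0.42, adjusted p = 0.0334), beside Rxra and Rxrg.

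The receptor that rose was Esr1, estrogen receptor α, at 1.01, 0.644 and 0.530 FPKM in Ctrl and 29.3, 57.5 and 29.4 FPKM in cKO (4.46, adjusted p = 0.000222). MerCreMer carries an altered ligand-binding domain of mouse estrogen receptor α on each side of Cre, and only cKO mice carry it. A value per gene does not show where in Esr1 the reads lay, so transgene and endogenous transcripts cannot be told apart.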
